A study of Canis lupus familiaris with 33 samples.

Results

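The regions described here were those in which the ovary of adult beagles differed from 10 other tissues in a genome-wide map of DNA methylation. The map was made by MBD-seq: beads coated with a methyl-CpG-binding protein domain pull methylated fragments out of sheared genomic DNA, and these fragments are read by sequencing. A peak is a stretch of the genome where captured fragments pile up, and its fold is the enrichment deposited for it. All peaks of the 11 lists (1 per tissue) on the 38 autosomes were merged into 450785 union regions, and the ovary list had a peak in 334436 of them (74.2%). Among these, 26411 regions had a peak in ovary and in no other list, and 121527 regions had a peak in all 11 lists. A further 3435 regions had a peak in each of the 10 other lists and none in ovary.

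The ovary list carried the names of 2 capture libraries, from 2 animals that were labelled female and were in good health. The ovary input library, DNA that was not captured, came from 1 of this pair. Each of the 10 comparison tissues (the brain tissues cerebrum and cerebellum, the digestive tissues colon, liver, pancreas and stomach, and kidney, lung, mammary gland and spleen) likewise had 2 capture libraries and 1 input library, without any treatment. The labels describe 3 dogs but carry 4 animal names, and the animal of 1 capture library in 7 of the comparison tissues is labelled male there and female in the input libraries. Mammary gland was the only one of them with the same pair of animals as ovary, and kidney, mammary gland and pancreas shared its input animal. The sequenced fragments were those eluted at 600 and 800 mM, the fractions that hold the most densely methylated DNA. The measurements come from whole tissue, so fewer methylated cells and less methylation per cell cannot be told apart.

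DNA methylation in mammals sits mainly on the cytosines of CpG dinucleotides, is set and copied by DNA methyltransferases and is removed with the help of TET enzymes. Most CpG sites of a mammalian genome are methylated, while many CpG-rich promoters and active enhancers are not, and the sites that escape methylation differ between cell types. The ovary holds oocytes within follicles, the steroid-producing granulosa and theca cells around them, and a large stroma of connective tissue, vessels and surface epithelium. Its germ cells are few among many somatic cells. Genes, promoters and sequences at the regions below were not analysed here, and the tissue label was not checked against marker genes for the same reason. Positions are on the CanFam3.1 build.

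Each tissue gave a single list, so there is no spread between replicates within a tissue, and the read depth behind the lists is unknown. An exact permutation test of 1 list against 10 cannot give a one-sided p below 0.0909, so no test was run and ovary was set beside the same value of every other tissue. Cerebellum stood apart from the other lists in most counts, and values without it are given beside the counts it moved most. The ovary list was the longest, with 353642 autosomal peaks that covered 210.16 Mb, against 251352 (colon) to 340948 (cerebellum) peaks and 139.781 Mb to 192.345 Mb in the others. Its folds had the narrowest range: the 99th percentile was 2.59 times the list median, against 3.20 to 6.38 times in the other lists. Folds are given as a relative fold, the fold of a peak divided by the median fold of its list (6.55 in ovary).

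Peaks found in ovary alone were numerous, short and weak. They made up 5.86% of all union regions, and 26411 such regions compared with 35014 for cerebellum, 4500 for liver, 4079 for kidney, 3815 for cerebrum, 2947 for spleen, 1702 for lung, 1256 for colon, 1130 for mammary gland, 816 for stomach and 418 for pancreas. Ovary and cerebellum thus lay far above the other 9 lists. Without cerebellum among the lists, 41184 regions were found in ovary alone. With every list cut to its 251352 peaks of highest fold, the ovary count was 12162.

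The median ovary-only region was 260 bases long (quartiles 239 and 288, range 218 to 960), against 798 bases for regions shared by all 11 lists. Shared regions are merged from the peaks of 11 lists. Regions unique to another tissue had medians from 197 (pancreas) to 273 (colon) bases, and ovary ranked second. The median relative fold of ovary-only regions was 0.67, and 95.4% of them lay below the median fold of the list. In the ranking of the ovary list by fold, they had a median percentile of 15.7. The median relative fold of regions unique to another tissue ran from 0.52 (stomach) to 0.638 (cerebellum), so the ovary-only set had the highest median of the 11 unique sets by a small margin. A relative fold of at least 1 was reached by 1215 ovary-only regions, at least 1.5 by 18, and the highest value was 1.98.

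The strongest ovary-only regions were single short peaks. The highest was at chr16:53770827-53771221, with a fold of 13.0 and a relative fold of 1.98, 716 bases from the nearest other union region. The second was on the same chromosome at chr16:54828647-54829255, with a relative fold of 1.88. Both sat in the distal 10% of chromosome 16. Next came chr7:4900101-4900642 with 1.86, chr25:24327245-24327579 with 1.83 and chr37:17810962-17811459 with 1.73. The 10 strongest also included chr32:28799075-28799556 (1.70), chr6:44080203-44080564 (1.67), chr7:52778101-52778914 (1.67), chr38:5901145-5901463 (1.61) and chr12:67251626-67251988 (1.59). The distance to the nearest other region in this set ran from 94 bases (chromosome 32) to 17187 bases (chromosome 38), and 7 of the 10 lay within 1 kb of another union region. No fold change is given for these regions, because the other lists hold no value there.

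**Figure D1:**
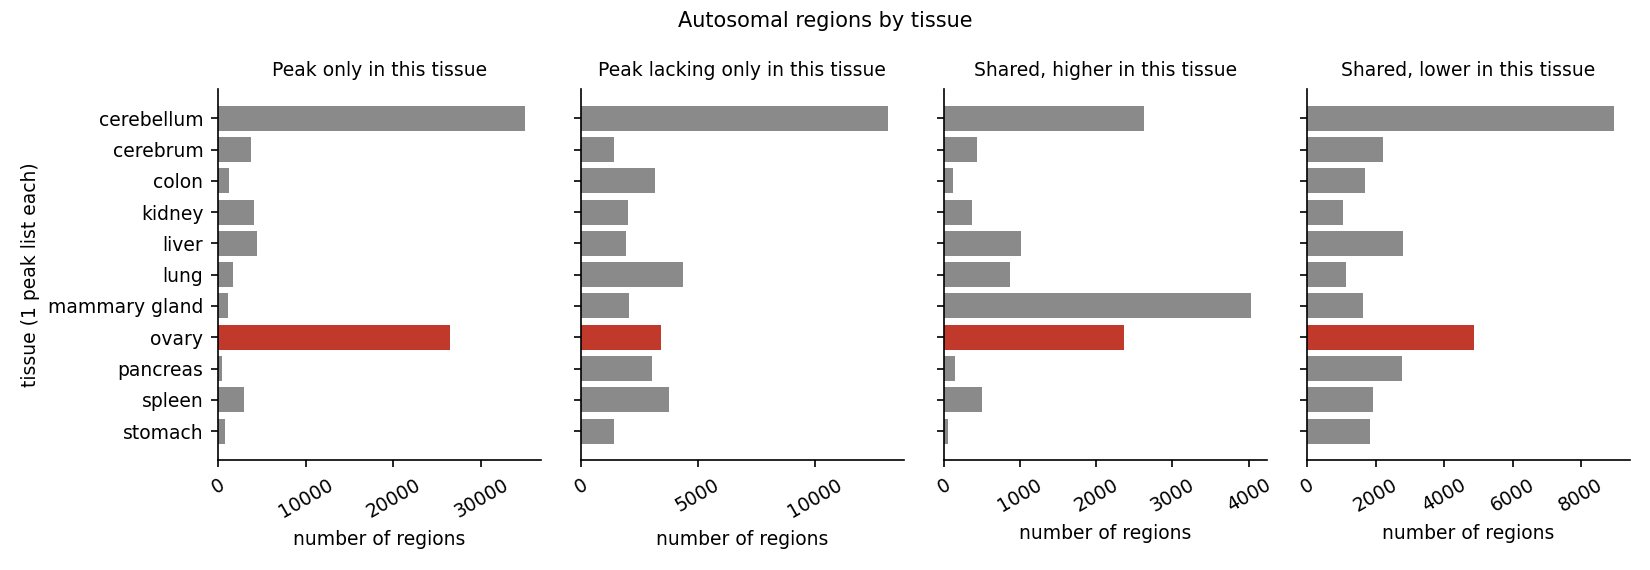
Numbers of autosomal regions (horizontal axes, starting at 0, scales differ between panels) in each of the 11 tissues, from left to right with a peak only in that tissue, lacking a peak only in that tissue, and shared by all lists but at least 2-fold higher or lower there and outside the range of the other 10. Each bar is 1 list, with ovary in red. Ovary ranked second for unique regions (26411) and for lower shared regions (4866), and was below 3 lists for missing regions (3435) and below 2 for higher shared regions (2365).

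Ovary also carried a peak in many regions of limited sharing. Of the 82656 regions with a peak in exactly 1 of the 10 other lists, ovary had a peak in 32.6% (Wilson interval at 95%, 32.3% to 33.0%). The same share, computed for each other tissue in turn, had a median of 4.87% and ran from 1.32% (pancreas) to 34.3% (cerebellum). Of regions with a peak in 5 of the 10 other lists, ovary had one in 73.5%, above the highest other tissue (kidney, 63.7%). Ovary was no longer highest for broadly methylated regions. It had a peak in 84.3% of regions found in 8 others (kidney 84.9%). Of regions found in 9 others it had 90.2% (median of the other tissues 88.9%, liver highest at 92.6%). Of those found in all 10 it had 97.3%, below the median of 98.0%. The median relative fold of the ovary peaks climbed along this series, from 0.725 with 1 other tissue through 0.883 with 5 to 1.49 with 10. Wilson intervals cover counting error only.

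The regions ovary shared with a single other tissue mostly had cerebellum as partner. Of 26979 such regions, 14565 (54.0%) were shared with cerebellum, 3718 with kidney, 3108 with cerebrum, 1518 with liver, 1470 with spleen, 1058 with lung, 807 with mammary gland, 349 with stomach, 216 with pancreas and 170 with colon. List length enters these counts, so each was also divided by all regions that the partner shared with exactly 1 tissue. On that basis ovary was the partner in 59.4% of the regions of cerebellum, 41.8% of those of kidney, 38.9% of those of mammary gland and 11.0% of those of colon. Mammary gland, with the same animals and input animal, came after cerebellum and kidney by share, while 6 tissues had a higher count.

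Regions that lacked a peak only in ovary were 0.762% of all union regions and 2.75% of those with a peak in the 10 others. Counts in the other tissues were 13152 for cerebellum, 4367 for lung, 3765 for spleen, 3149 for colon, 3021 for pancreas, 2059 for mammary gland, 2002 for kidney, 1914 for liver, 1428 for cerebrum and 1414 for stomach. Ovary, with 3435, came after cerebellum, lung and spleen although its list was the longest. With equal list sizes it had 7296, and without cerebellum 4804.

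Regions missing in ovary, like those missing in cerebellum, had higher levels in the remaining tissues than the regions missing in any other tissue. For each such region the median relative fold of the 10 other tissues was taken, and its median over the ovary set was 1.05. It was 1.09 for the regions missing in cerebellum and 0.822 to 0.932 for those missing in any of the other 9 tissues. A level of at least 1.5 was found in 515 of the 3435 ovary regions (14.99%) and in 2394 of the cerebellum regions (18.2%), against at most 1.60% (kidney) in the remaining tissues. A level of at least 2 was found in 154 regions for ovary, 655 for cerebellum, 9 for spleen, 3 for cerebrum, 2 for pancreas and 0 for the other 6. The regions missing in ovary were also longer than the unique ones, with a median of 469 bases (quartiles 343 and 748.5, range 268 to 4236). They are merged from the peaks of 10 lists, while a unique region is a single peak. In the other tissues medians were 352 to 554 bases for missing and 197 to 273 bases for unique regions. The nearest ovary peak to the missing regions lay at a median distance of 1253 bases, against 1421 (stomach) to 3267 (colon) bases for the other tissues. The ovary list also had the most peaks and covered the most bases, and distances from other kinds of region were not measured.

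The 10 regions with the highest level elsewhere had strong peaks in most other tissues and no called peak in ovary. At chr10:65581594-65582459 the 10 other tissues had relative folds from 1.37 (cerebrum) to 5.34 (mammary gland) with a median of 3.50, and the nearest ovary peak was 433 bases away. At chr9:58459781-58460597 they ran from 2.33 (cerebellum) to 4.52 (mammary gland), with a median of 3.44. At chr1:91768063-91769111 the lowest was 2.08 (liver), the median 3.19 and the highest 5.38 (mammary gland). In these regions all 10 other lists lay above their own list medians. The same held at chr6:18385941-18387279 (1.89 to 4.10, median 3.19), chr15:12981763-12982729 (2.14 to 4.23, median 2.90), chr2:64932818-64934048 (1.91 to 5.69, median 2.87), chr20:591887-592591 (1.98 to 3.49, median 2.86) and chr9:36885111-36885574 (1.32 to 4.04, median 2.84).

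At the remaining pair, cerebellum was low as well. At chr2:68569200-68570107 cerebellum had 0.82 and pancreas 0.849, whereas mammary gland had 3.94 and the median was 3.01. At chr10:33556105-33557146 cerebellum had 0.612 and colon 3.89, with a median of 2.92. Mammary gland was the highest tissue in 5 of these 10 regions, and it also had the largest median difference (0.65) in the strongest 10% of shared regions. An ovary peak lay within 171 to 1169 bases of each of the 10.

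**Figure D2:**
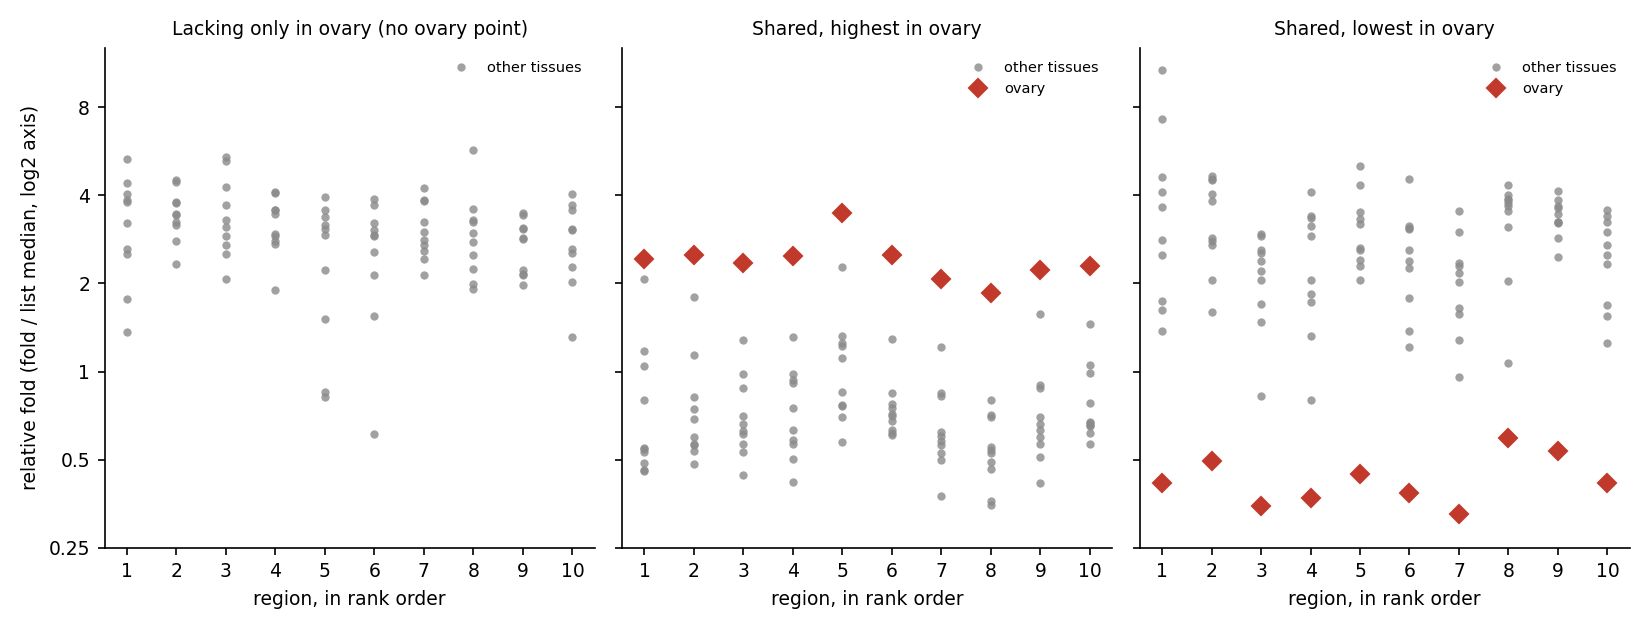
Relative fold (fold divided by list median, log2 axis) of each list in 10 named regions per panel, in rank order along the horizontal axis: regions lacking a peak only in ovary (left), shared regions highest in ovary (middle) and shared regions lowest in ovary (right). Grey points are the 10 other tissues and red diamonds are ovary, which has no point in the left panel. In the middle and right panels the ovary value lies outside the range of the other tissues in every region (the regions were chosen by their difference from the median of the others).

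In the 121527 regions with a peak in every list, the relative fold of the highest ovary peak was compared with the median of the 10 other tissues as a log2 difference. The median difference was -0.14, the lowest of the 11 tissues when each is treated in the same way (others -0.09 in pancreas to 0.12 in lung). The spread of the difference over regions was 0.555 (SD), second to 0.638 in cerebellum. A region was called when it differed at least 2-fold from the median of the other tissues and lay outside all 10 of them. By this rule 2365 regions (1.95%) were higher in ovary and 4866 (4.00%) were lower. The other tissues had 56 (stomach) to 4037 (mammary gland) higher regions, with cerebellum at 2627, and 1059 (kidney) to 8973 (cerebellum) lower ones.

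This balance depended on how the folds were scaled and centred. The slope of ovary log2 values on the median of the others was 0.47, the lowest of the 11 tissues, with cerebellum at 0.555 and mammary gland highest at 1.31. Where the other tissues were weakest (lowest of 10 groups by level, level median 0.815), the ovary difference was 0.46, and where they were strongest (3.46) it was -0.70. The level of the others is itself subtracted in the difference, in every tissue alike. Ovary medians ran from 1.10 to 2.18 between these groups. Higher calls fell to the weak end, with 1414 in the first group and 0 in the top 4, and lower calls to the strong end, with 14 in the first group and 1399 in the last. On a matched scale, on which every list was given the same distribution of values over the shared regions, 6233 regions (5.13%) were higher in ovary and 5816 (4.79%) lower. The other tissues had 42 (stomach) to 3762 (cerebellum) higher and 987 (stomach) to 8526 (cerebellum) lower regions on that scale, so ovary had the most higher regions of the 11. The share of higher regions among all calls moved from 32.7% to 51.7%, and the median difference to -0.05. With equal list sizes 369 regions were higher and 6790 lower (5.15% of calls higher), and in the upper 50% of every list by fold 79 were higher and 1106 lower (6.67%). By rank within each list 9328 were higher and 3817 lower (71.0%), and the median difference was 0.11. Centring the ovary difference on its median, which leaves the range of folds as it was, gave 4498 higher and 2755 lower (62.0%). The balance between higher and lower calls thus turned with the scale. The list-median and matched scales both called 2273 regions higher and 4258 lower.

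**Figure D3:**
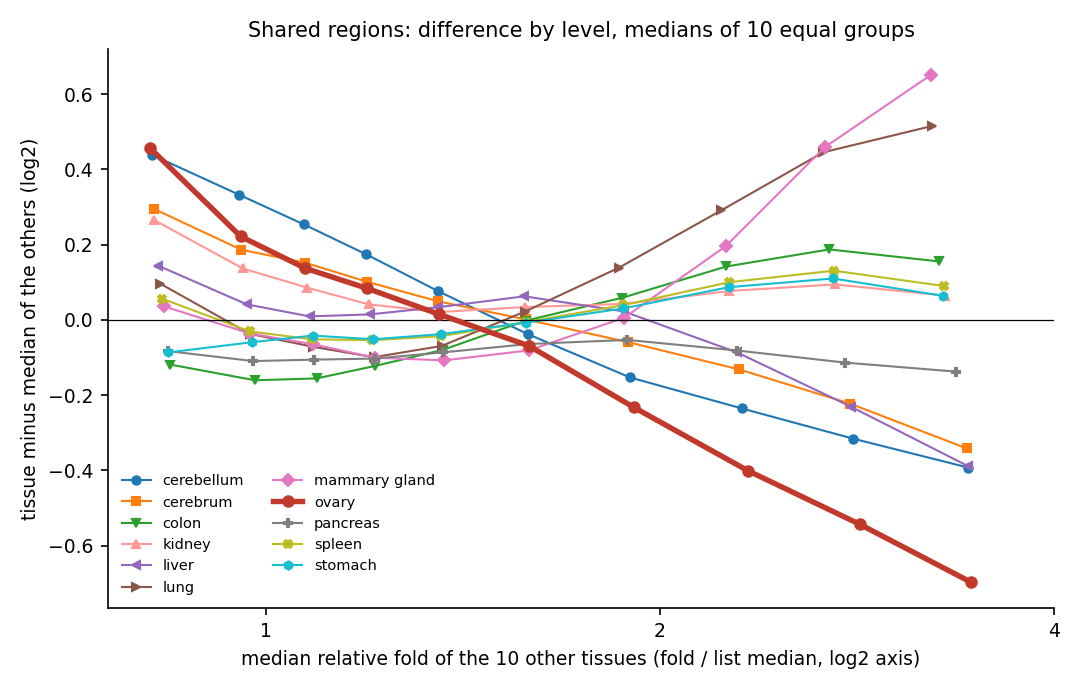
Log2 difference between each tissue and the median of the 10 others (vertical axis) against that median relative fold (log2 axis), as medians of 10 equal groups of the 121527 shared regions ordered by level. Each line is 1 tissue, with ovary as the thick red line. Ovary runs from 0.46 in the weakest group to -0.70 in the strongest, the lowest value of any tissue there.

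Wide regions were the ones that lay lowest in ovary. In the narrowest 20% of shared regions (258 to 406 bases) the median difference was 0.01, and in the widest 20% (1647 bases and more) it was -0.48. The level of the other tissues was 1.05 in the former and 2.85 in the latter, and on the matched scale both differences were -0.10. Regions called lower had a median width of 1167.5 bases, those called higher 647 bases. The selection fixes the ovary levels of these sets, which are given as a description: 1.05 in ovary against 2.56 in the others for lower regions, and 1.94 against 0.851 for higher regions. In the lower set lung (3.08) and mammary gland (3.07) had the highest medians and cerebellum (2.07) the lowest.

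The shared regions highest in ovary were weak in most other tissues. At chr3:4526321-4527223 ovary had a relative fold of 2.43 and the other tissues ran from 0.456 (mammary gland) to 2.07 (cerebellum) with a median of 0.544, a log2 difference of 2.16. At chr35:1734146-1734680 ovary had 2.51 and the others 0.484 (pancreas) to 1.80 (cerebellum), median 0.64. At chr38:12147421-12148267 ovary had 2.34, and the others lay between 0.444 (pancreas) and 1.28 (cerebellum). At chr5:86852707-86853282 it was kidney, at 1.31, that came closest to the ovary value of 2.48. The strongest ovary peak of the set was at chr2:4543468-4543933, with a fold of 22.7 and a relative fold of 3.47, against 0.574 (liver) to 2.28 (cerebellum) elsewhere. Cerebellum was the highest of the other tissues in 7 of these 10 regions, and after ovary (0.46) it had the largest median difference (0.44) in the weakest 10% of shared regions generally. The others were chr23:36495049-36495475 (log2 difference 1.81), chr4:75999266-75999719 (1.81), chr23:50905805-50906381 (1.80), chr18:28766076-28766443 (1.78) and chr3:88447647-88448187 (1.78). All 10 were also called higher on the matched scale, as were 2273 of all 2365 higher regions.

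The shared regions lowest in ovary had ovary peaks below the list median. At chr33:635487-635841 ovary had a relative fold of 0.415, while the others ran from 1.38 (cerebellum) to 10.7 (colon) with a median of 3.21, a log2 difference of -2.95. At chr25:39684148-39687859, a region of 3712 bases with 2 ovary peaks, ovary had 0.495 and the others 1.59 (cerebellum) to 4.67 (lung). At chr8:72300270-72301963 ovary had 0.347 against 0.827 (cerebellum) to 2.95 (spleen). Kidney was the lowest of the other tissues at chr7:6164685-6165645, with 0.799 against 0.37 in ovary and a median of 2.44. At chr1:3140615-3142232 ovary had 0.446 and all others at least 2.05. At chr5:57561465-57563349 the separation from the nearest tissue was wide, with 0.534 in ovary and 2.45 (pancreas) to 4.15 (spleen) elsewhere. The remaining regions were chr2:74327089-74328657, chr6:11116270-11116985, chr10:22372715-22373369 and chr20:45830947-45831648, with log2 differences of -2.70, -2.69, -2.64 and -2.64. All 10 were also called lower on the matched scale, as were 4258 of all 4866 lower regions.

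Unlike the calls above, a comparison with mammary gland holds the animals and the input animal constant. Ovary had a peak in 124569 regions where mammary gland had none, mammary gland in 22656 where ovary had none, and both in 209867. In the regions shared by all lists, the median log2 difference was -0.14, with 7393 regions (6.08%) at least 2-fold higher in ovary and 21141 (17.4%) at least 2-fold lower. On the matched scale these were 10254 and 8810. Mammary gland had the widest range of folds of the 11 lists and ovary the narrowest, and the part of this in the difference was not tested. Among the 4 lists with the same input animal as ovary (kidney, mammary gland, ovary and pancreas), 69722 regions had a peak in ovary alone, 10096 lacked one in ovary alone, and the median difference over their shared regions was -0.01. Fewer lists make such regions more common by construction.

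Along the chromosomes, ovary-only regions were spread over all autosomes, and near the ends they made up a smaller share of the union regions, which are dense there. The outer 10% at each end of the chromosomes (the span up to the last peak taken as length) held 22.2% of them (Wilson interval 21.7% to 22.7%), against 26.3% of all union regions and 33.5% of the shared ones. Other tissues' unique regions gave 19.7% (stomach) to 26.3% (pancreas), so ovary lay within their range. Each chromosome was cut into 10 equal parts. Part 1, where positions are lowest, held 10.4% of all ovary-only regions and part 10 held 11.8%, the most of any part. As shares, ovary-only regions were 5.25% of union regions in part 1, at most 6.43% in the middle parts and 4.70% in part 10. Missing regions, as a share of those with a peak in the 10 others, were 2.51% in part 1, 3.49% in part 7 and 1.84% in part 10.

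Lower regions, as a share of shared regions, were most frequent in part 10, where 5.44% were lower in ovary, against 2.94% to 4.06% in the other parts. Part 10 held 27.1% of the lower regions and 20.0% of all shared regions. It was also the part where the other tissues were strongest, with a median level of 1.86 against 1.32 to 1.60 elsewhere. On the matched scale part 10 had 5.40% lower and 6.10% higher regions, both the highest of the 10 parts.

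**Figure D4:**
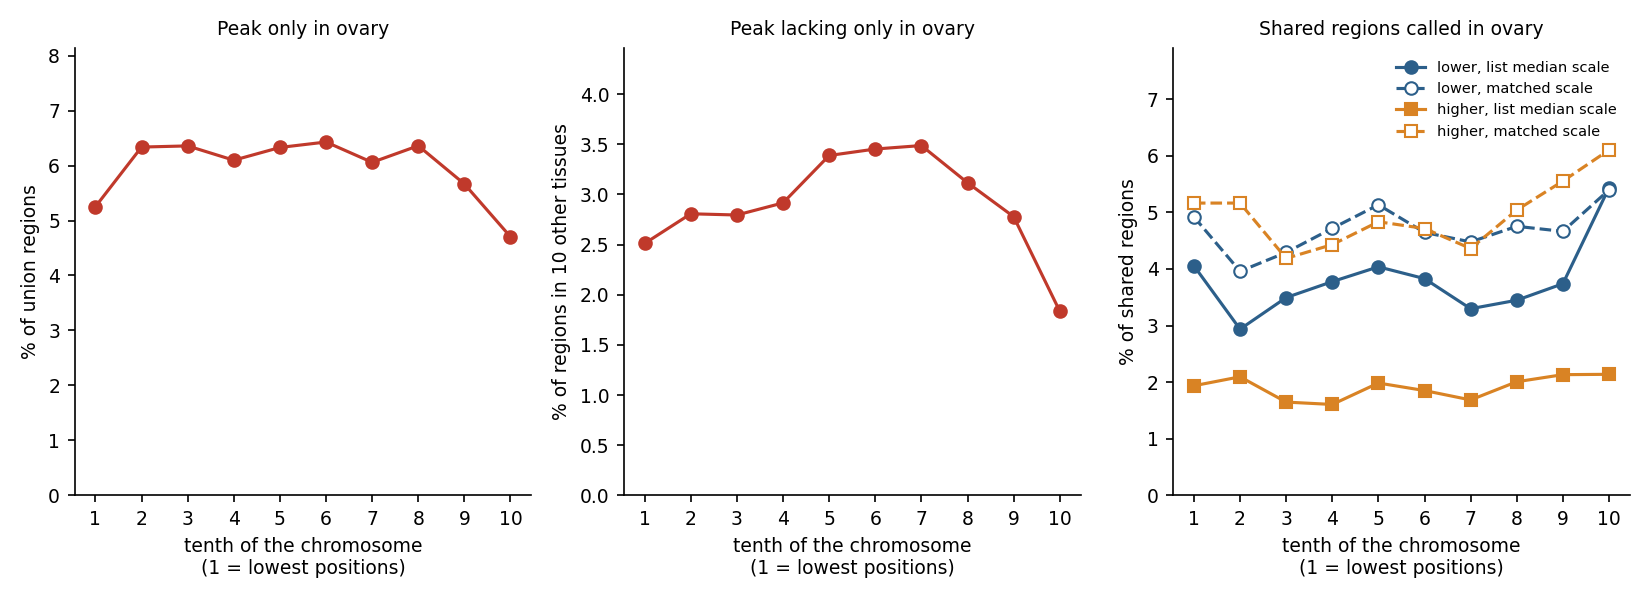
Share of regions in 10 equal parts of the chromosome (1 has the lowest positions), with counts pooled over the 38 autosomes: ovary-only regions as a percent of union regions (left), regions lacking only in ovary as a percent of those with a peak in the 10 other lists (middle), and shared regions called higher or lower in ovary (right; filled symbols list median scale, open symbols matched scale). Vertical axes start at 0. The left and middle curves are lowest in part 10 (4.70% and 1.84%), where lower calls reach 5.44%.

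By chromosome, the share of ovary-only regions ran from 4.33% of union regions on chromosome 20 (Wilson interval 4.00% to 4.68%) and 4.34% on chromosome 9 to 7.48% on chromosome 14 and 7.88% on chromosome 29 (7.24% to 8.57%). Per Mb the order differed, with 14.9 regions on chromosome 16 and 14.7 on chromosome 36 at the top and 8.22 on chromosome 32 at the bottom. The median width of ovary-only regions hardly varied, from 256 bases on chromosomes 27 and 32 to 264 bases on chromosome 36. Missing regions were most frequent on chromosome 30 (3.83% of those in the 10 others, Wilson interval 3.11% to 4.72%), chromosome 9 (3.60%) and chromosome 20 (3.48%), and least frequent on chromosome 31 (1.34%) and chromosome 16 (1.65%). The widest missing region, 4236 bases, was on chromosome 9, and the median width of missing regions ran from 330 bases on chromosome 29 to 676.5 bases on chromosome 18.

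Chromosomes 9 and 20 had low shares of unique regions, high shares of missing ones and low levels in shared ones. Per Mb, however, chromosome 9 ranked 15 of 38 for unique regions (12.4), and chromosome 20 ranked 33 (10.0). The median log2 difference was negative on all 38 chromosomes, and lowest on chromosome 20 (-0.28), chromosome 31 (-0.24) and chromosome 9 (-0.23). On the matched scale chromosomes 20 and 9 remained lowest (-0.21 and -0.17), chromosome 31 had -0.11, and chromosome 36 was highest at 0.11. The other tissues ran from -0.08 to 0.06 on chromosome 20 and from -0.12 to 0.09 on chromosome 9 on that scale. The share of union regions with an ovary peak was above that of every other tissue on 36 chromosomes, the exceptions being 37 and 38, where cerebellum was higher. More regions were called lower than higher on 37 of 38 chromosomes, and on the matched scale more were higher than lower on 25.

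**Figure D5:**
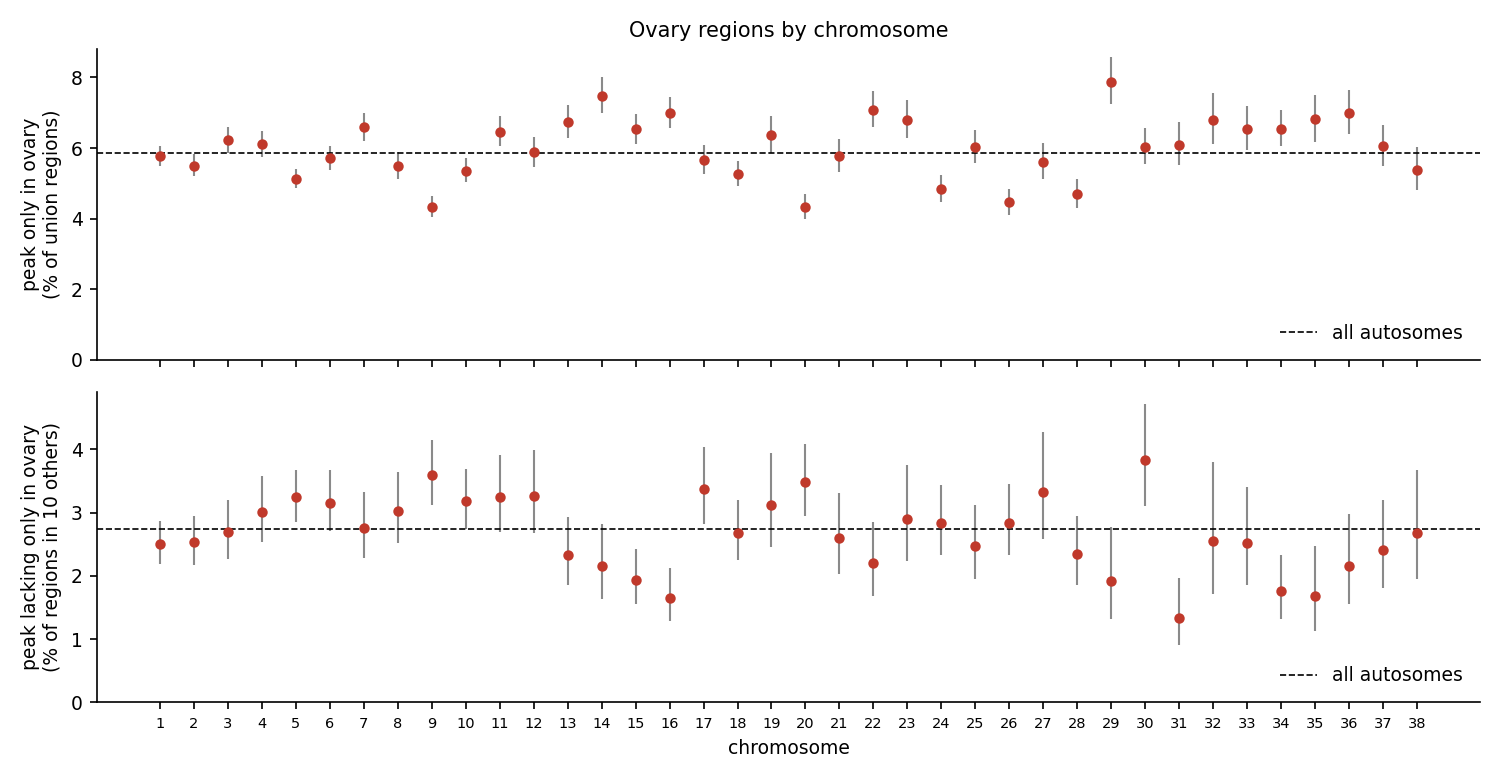
Ovary-only regions as a percent of union regions (top) and regions lacking only in ovary as a percent of regions with a peak in the 10 other lists (bottom), for each of the 38 autosomes. Points are the shares of 1 list, vertical bars are 95% Wilson intervals (counting error only), dashed lines the value over all autosomes, and both axes start at 0. Chromosome 29 is highest in the top panel (7.88%), and chromosome 30 in the bottom panel (3.83%).

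Single windows of 1 Mb departed further. In windows with at least 20 shared regions, the lowest median difference was on chromosome 20 at 57 to 58 Mb (-0.84 over 168 regions, 34 of them called lower and 0 higher). The other tissues there lay between -0.45 and 0.55. Chromosome 25 at 50 to 51 Mb (-0.81, 73 regions), chromosome 28 at 40 to 41 Mb (-0.75, 153 regions) and chromosome 24 at 47 to 48 Mb (-0.74, 116 regions) followed, all in the last Mb of peaks or next to it. On the matched scale chromosome 20 at 57 to 58 Mb had -0.64, below the range of the other tissues (-0.18 to 0.15). The lowest window on that scale was chromosome 26 at 26 to 27 Mb, with -0.78 over 31 regions against -0.22 to 0.25 in the other tissues. At the opposite extreme, chromosome 35 at 12 to 13 Mb had 0.47 over 31 regions, with the other tissues between -0.21 and 0.16. Chromosome 26 at 33 to 34 Mb had 0.43 over 41 regions and 8 higher calls, and the highest other tissue there was at 0.45. On the matched scale the highest windows were chromosome 21 at 49 to 50 Mb (0.60 over 110 regions, other tissues -0.17 to 0.44) and chromosome 16 at 57 to 58 Mb (0.57 over 84 regions, other tissues -0.17 to 0.33). Chromosome 26 at 33 to 34 Mb had 0.57 on that scale, and chromosome 35 at 12 to 13 Mb was not among its 5 highest.

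Few ovary-only regions formed clusters, defined as at least 5 regions with gaps of at most 10 kb. The 62 clusters held 349 regions (1.32%), against 1001 regions for cerebellum and 0 to 31 for the other 9 tissues. As a share of the unique regions of the tissue, this was 2.86% for cerebellum and at most 0.689% (liver) for the other 9. Without cerebellum among the lists 1110 ovary-only regions lay in clusters, and with equal list sizes 22. The longest run was 11 regions over 57.5 kb at chr35:14515851-14573340, where 15 of the 17 union regions had an ovary peak and none was shared by all lists. Runs of 9 lay at chr1:20261670-20291673, chr16:56154865-56186249 and chr34:37664266-37689848. The run on chromosome 34 was the strongest, with relative folds from 0.578 to 1.08, and its 2 shared regions had a median log2 difference of 1.00. The window of chromosome 16 from 56 to 57 Mb held 54 ovary-only regions among 336, the highest number of any window together with chromosome 1 at 17 to 18 Mb (54 of 430).

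Missing regions formed 3 clusters. At chr4:59534853-59553662, 6 regions of a median 1012 bases lacked a peak only in ovary, and the ovary list had no peak in any of the 11 union regions of this 18.8 kb span. At chr19:29296568-29336372, 7 of 26 regions lacked a peak only in ovary, 10 had one, and the 7 shared regions had a median difference of -0.89. At chr30:37271852-37284878, 5 of 9 regions were missing and the 3 shared regions had -1.04. Lower shared regions formed 10 clusters with 54 regions, of which the largest was 8 regions at chr20:4592712-4627919, followed by 6 at chr38:23777101-23816772. The remaining clusters tied at 5 regions each, among them chr10:28700360-28734398, chr11:68465303-68496652 and chr17:895167-918619. Higher shared regions formed 0 clusters.

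Shared regions near a missing one were also low in ovary. Within 2 kb of a region lacking only in ovary there were 2124 shared regions, with a median difference of -0.38 against -0.14 for all shared regions, and -0.24 against -0.05 on the matched scale. The same value near the missing regions of each other tissue ran from -0.47 (cerebellum) to -0.04 (colon) on the matched scale. Within 2 kb of an ovary-only region, 7704 shared regions had a median of -0.03, where the other tissues gave 0.07 (pancreas) to 0.29 (lung). The matched scale gave 0.0796 against 0.0849 (kidney) to 0.20 (cerebellum), so ovary was lowest of the 11 tissues on both scales. Over all shared regions it was lowest of the 11 on both scales as well. Near ovary-only regions the ovary value lay above that for all shared regions, as in each other tissue near its own unique regions.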

How the data were processed

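The members, lists and tests were chosen with earlier results of these data known. Peak lists were deposited by the authors without a header, 1 per tissue, each named in the labels of 2 capture libraries. The build is CanFam3.1, per the submitters' processing notes. The aligner, peak caller, filters, control and the way libraries were combined are not given in the sources used here. The fold is a ratio that the authors deposited for each peak, and the −log10 p-value of each peak was also taken as deposited and used only to describe it. Dividing by the list median sets the middle of each list to 1 and leaves the width of its range as it was, so lists of narrow and wide range differ with the level of the region.

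Peaks on the 38 autosomes that overlapped or touched were merged, and a tissue was present with at least 1 base. In shared regions the highest fold per list was divided by the list median, and log2 values were compared with the median of the 10 others. Regions named are the 10 strongest of each kind and the largest 5 clusters, and clusters or windows named beyond these were chosen after their values were seen. The matched scale and the set with a level of at least 1.5 were added after the data were seen. In 20000 simulated regions, all 2000 unique, 500 missing, 500 higher and 500 lower regions planted were recovered with 0 false ones. The planted differences were large against the simulated noise, and all simulated lists had the same range of folds. Regions present in a random part of the lists were left out of the false counts for unique and missing regions. The simulation thus checks the code and not the error rates in these data. Alternatives are given in the closing section. Shares have 95% Wilson intervals. Depth is unknown, which leaves the precision of single folds unknown. Chromosome X, genes, promoters and sequences were left out of the comparison, the last 3 because no annotation of this build was used here. Python 3.11.15, numpy 2.4.6, pandas 2.3.3, scipy 1.17.1 and matplotlib 3.10.9 were used.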

Additional observations from a re-analysis of the deposited data

Results flagged for a closer look

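Cerebellum lay far from the other 9 comparison lists in 8 of the 12 measures searched for a distant list, and about 1 in 20 groups shows such a list by chance. It had 340948 autosomal peaks, 35014 regions of its own, 13152 regions missing only there, 8973 lower shared regions (8526 on the matched scale) and 3762 higher shared regions on the matched scale. It also had 1001 unique regions in clusters and the widest spread of median differences over windows of 1 Mb (SD 0.214, against 0.178 in ovary and at most 0.137 in the other 9). Ovary was itself the nearest list to cerebellum in peaks (353642), unique regions (26411) and lower regions (4866).

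Chromosome X was outside the comparison. There, 1127 of 21367 union regions had a peak only in ovary (5.27%, 95% Wilson interval 4.98% to 5.58%, counting error only), against 5.86% on autosomes. Cerebellum had 1810 such regions on X, and mammary gland, from the same animals as ovary, had 72. Both ovary animals are labelled female, whereas the second cerebellum animal is labelled male in its capture libraries and female in its input libraries, so the sex behind the cerebellum value is uncertain, as it is for cerebrum, kidney, liver, lung, pancreas and spleen, which have a capture library of the same animal. The number of X regions missing only in ovary was 57.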

How the results depend on the processing

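Values are in this order: ovary-only regions, missing regions, higher and lower shared regions, and median log2 difference. Ovary-only regions in clusters and percent of ovary-only regions in the outer 10% follow. Apart from the ranges without 1 tissue, only values that moved are given. A count moved if it differed more than 1.5-fold from the main value, and the percent if it left its Wilson interval. The median moved if it changed by at least 0.0656, its SD over the 10 other tissues. The mean fold of the peaks in a region moved none (2693 higher, 4410 lower, -0.0923). Over its 20 alternatives the median difference stayed below 0 except with ranks within each list (0.11, reversed; 9328 higher regions) and with centring on shared regions (0 by construction; 4498 higher and 2755 lower, so 62.0% of calls higher). Equal list sizes gave 12162, 7296, 369 higher, -0.34, 22 and 23.5%. Keeping only the upper 50% of every list by fold gave 79 higher, 1106 lower, -0.28, 173 and 24.5%. The 5 lists with a longer shortest peak gave 49789, 8604, 4919 higher, 10756 lower, 2176 and 22.8%. The 4 lists with the same input animal gave 69722, 10096, 8317 higher, 9661 lower, -0.00642, 6591 and 23.5%. Requiring 50% of a region to be covered gave 1037 higher and 524 in clusters. Regions with 1 peak in every list gave 2847 lower and -0.0692, and a 1.5-fold threshold 8770 higher and 14995 lower. The matched scale gave 6233 higher and -0.0455, and without cerebellum 7732 higher and 7306 lower. Gaps of up to 20 kb gave 1602 regions in clusters, and the outer 5% held 10.5% of ovary-only regions, against 14.1% of union regions. Leaving out 1 tissue at a time gave 26583 to 41184 ovary-only regions, 3529 to 4804 missing, 2360 to 3355 higher, 4496 to 6642 lower, -0.14 to -0.12 for the median, 365 to 1110 in clusters and 22.1% to 22.9% in the outer 10%. The highest counts were those without cerebellum. Without cerebrum 540 and without kidney 577 regions lay in clusters. The 515 missing regions with a level of at least 1.5 became 939 with 50% coverage, 1064 with equal list sizes and 784 with the same input animal. Fewer lists or peaks change these counts by construction, and for the other settings the cause was not tested.

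No paired analysis was possible because each list joins the 2 libraries of a tissue. Promoter comparisons were not run, since no annotation of the build was used here. The lists hold only called peaks, and read depth is unknown, so a region without a peak cannot be told apart from one with signal below the threshold of its list.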

Other observations

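Neighbouring shared regions had related values in ovary. Over 22090 pairs of neighbours within 2 kb, the correlation of their log2 differences was 0.15 in ovary, 0.26 in cerebellum and 0.06 to 0.15 in the other 9 tissues. It was 0.15 at 5 to 20 kb, where the other tissues gave 0.03 to 0.23, and 0.07 at 20 to 100 kb. On the matched scale these ovary values were 0.16, 0.11 and 0.07. The pairs come from the same lists, so the values are descriptions.

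Regions missing in ovary and in exactly 1 other tissue numbered 3950. Cerebellum was the other tissue in 1338 of them (33.9%), mammary gland in 429, spleen in 380, pancreas in 369, kidney in 366, lung in 286, colon in 270, cerebrum in 254, liver in 164 and stomach in 94. As a share of all regions that a tissue lacked together with exactly 1 other, ovary was the second tissue in 17.3% for cerebellum, 12.0% for kidney, 10.9% for mammary gland and 3.01% for stomach.

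By share, the windows richest in ovary-only regions were chromosome 37 at 19 to 20 Mb (21 of 82 union regions) and chromosome 13 at 17 to 18 Mb (34 of 134), against a median of 6.11% over 2209 windows. Missing regions were most frequent on chromosome 20 at 29 to 30 Mb (4 of 20 regions with a peak in the 10 others) and reached 10 of 56 on chromosome 8 at 42 to 43 Mb.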
